A study of Mus musculus with 2 samples.

Results

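The mitotic cells of cluster 3 were 739 of the 7863 colonic epithelial cells profiled. They were the cells of cluster 3, the cycling cluster of the deposited clustering, in which Ccnb1, Cdc20, Ube2c, Plk1, Cenpa, Hmmr, Nusap1 and Aspm together held 0.1% or more of the cell's UMIs. A UMI is a molecular tag that counts 1 captured RNA molecule. There were 399 such cells among 918 in cluster 3 of the Mettl14 WT library and 340 among 890 in the Mettl14 KO library. The other 519 and 550 cells are called the rest of cluster 3. Both libraries came from live cells of C57BL/6 mice that were sorted for the epithelial surface protein EpCAM, and the series text gives an age or interval of 2 weeks without saying from when. The knockout targeted Mettl14, which with Mettl3 forms the core of the enzyme that places N6-methyladenosine (m6A) on RNA. How it was made, which exons were deleted and how many mice entered each library are not given in the sources used here. With 1 library per genotype, no difference has a replicate check, genotype and library cannot be told apart, and no test or p-value is given. Each 95% interval covers counting error only.

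Colonic epithelium is renewed from dividing cells in the lower crypt. A dividing cell enters mitosis when cyclin B and CDK1 are activated, attaches its chromosomes to the spindle through the kinetochores, and leaves mitosis when the anaphase-promoting complex (APC/C), a ubiquitin ligase, marks securin and cyclin B for destruction. Transcripts of this machinery accumulate in G2 and M phase. An RNA profile of this kind reads the transcripts of late G2 and M together and does not see chromosomes, so the word mitotic stands here for the rule and not for a mitotic figure.

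Many promoters of G2 and M phase genes hold CCAAT boxes and a short element known as the CHR (cell cycle genes homology region). The promoters of 4 of the 8 rule genes that mark the cells, and of Nusap1, are shown because they differ in these letters. Each runs 5′ to 3′ on the gene's strand from 250 bases before to 50 bases after the start, from the RefSeq promoter table of GRCm38.p6. Capitals mark TTTGAA, the core of the CHR, and CCAAT, each on either strand (TTCAAA and ATTGG on the other).
Ccnb1 promoter, chr13:100786437-100786736, minus strand: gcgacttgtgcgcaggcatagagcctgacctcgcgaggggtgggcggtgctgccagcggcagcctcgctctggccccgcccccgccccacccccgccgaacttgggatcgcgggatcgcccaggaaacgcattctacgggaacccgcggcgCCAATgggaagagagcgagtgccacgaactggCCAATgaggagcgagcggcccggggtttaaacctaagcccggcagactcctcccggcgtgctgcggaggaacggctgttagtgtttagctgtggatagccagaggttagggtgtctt
Cdc20 promoter, chr4:118437294-118437593, minus strand: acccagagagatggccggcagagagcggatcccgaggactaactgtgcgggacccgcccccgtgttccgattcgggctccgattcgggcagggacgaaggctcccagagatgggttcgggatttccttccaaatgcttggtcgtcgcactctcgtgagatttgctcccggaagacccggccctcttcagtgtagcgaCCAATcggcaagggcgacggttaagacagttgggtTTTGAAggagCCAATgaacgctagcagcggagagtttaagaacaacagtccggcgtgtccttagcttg
Ube2c promoter, chr2:164769679-164769978, plus strand: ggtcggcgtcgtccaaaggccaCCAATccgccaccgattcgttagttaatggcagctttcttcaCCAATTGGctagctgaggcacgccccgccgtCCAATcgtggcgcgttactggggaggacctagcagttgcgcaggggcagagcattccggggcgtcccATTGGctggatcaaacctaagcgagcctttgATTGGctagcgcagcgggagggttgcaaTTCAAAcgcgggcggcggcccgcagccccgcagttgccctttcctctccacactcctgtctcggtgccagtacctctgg
Plk1 promoter, chr7:122159185-122159484, plus strand: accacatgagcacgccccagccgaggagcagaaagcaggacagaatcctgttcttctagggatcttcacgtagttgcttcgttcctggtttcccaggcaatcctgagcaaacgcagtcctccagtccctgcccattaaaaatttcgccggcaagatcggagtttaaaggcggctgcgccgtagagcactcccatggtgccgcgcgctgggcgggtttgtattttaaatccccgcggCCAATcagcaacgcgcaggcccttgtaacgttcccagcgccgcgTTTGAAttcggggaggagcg
Nusap1 promoter, chr2:119618048-119618347, plus strand: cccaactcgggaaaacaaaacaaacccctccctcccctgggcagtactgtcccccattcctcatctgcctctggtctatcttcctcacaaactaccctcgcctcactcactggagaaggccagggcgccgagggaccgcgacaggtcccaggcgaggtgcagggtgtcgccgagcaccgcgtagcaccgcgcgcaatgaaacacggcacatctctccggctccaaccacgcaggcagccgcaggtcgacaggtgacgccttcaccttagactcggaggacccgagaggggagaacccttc
TTTGAA stood in 6 of the 8 rule gene promoters (75%), against 20.2% of all 27025 genes with a promoter in that table. CCAAT stood in 7 of the 8 (87.5%), against 41.1%, and at 2 or more places in 6 of the 8 (75%), against 13.3%. Overlapping matches on both strands were counted separately, as in CCAATTGG of Ube2c. The Ccnb1 window held 2 CCAAT and no TTTGAA, and the Nusap1 window held neither, which says only that these letters are not in this window. Among genes higher in the mitotic cells than in the rest of cluster 3 in both libraries, with the rule genes left out, 81 of the 149 with a promoter in the table (54.4%) held TTTGAA. Among genes lower in both libraries it was 8 of 87 (9.20%), and among all genes measured in both libraries it was 1095 of 7539 (14.5%). These matches are a description of letters and not of binding.

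The mitotic cells were chosen by the 8 genes, so the level of these genes in them is no finding. At 0.1%, 94.5% of the 782 cells that met the share anywhere lay in cluster 3. In the other 6 clusters the share of cells at or above it ran from 0 of 151 cells in KO cluster 5, which allows a share of up to 1.99%, to 3.23% of 31 cells in KO cluster 6. The 43 cells outside cluster 3 are not members. In cluster 4, where the 10 colonocyte markers summed to 776 CPM in WT and 853 CPM in KO against 380 and 160 CPM in the mitotic cells, Ube2c had a UMI in 14.7% of WT and 16.1% of KO cells, with median depths of 12289 and 9210 UMIs, against 97.7% and 96.5% of the mitotic cells.

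**Figure D1:**
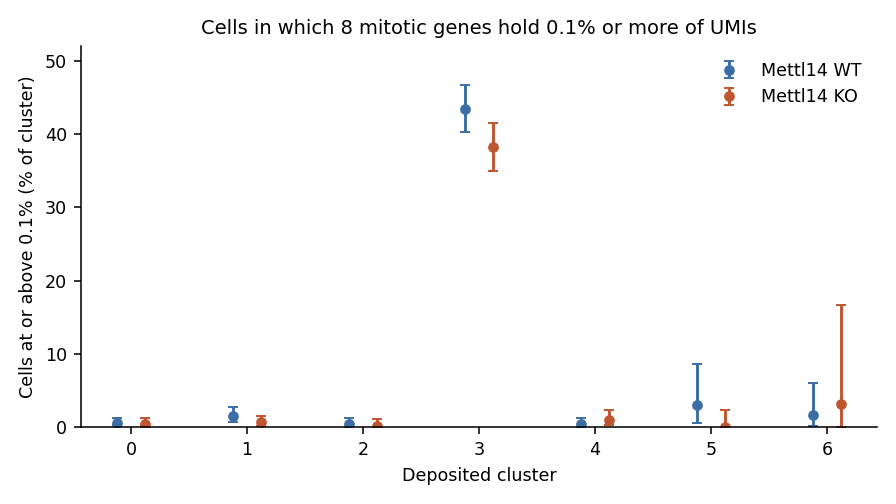
Percentage of cells in each of the 7 deposited clusters (horizontal axis) in which the 8 rule genes held 0.1% or more of the UMIs, for the Mettl14 WT and Mettl14 KO libraries, with 95% Clopper-Pearson intervals (bars) that cover counting error only. Cluster 3 stood at 43.5% in WT and 38.2% in KO, and every other cluster stood at or below 3.23%.

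Mitotic cells made up 43.5% of cluster 3 in the WT library (95% Clopper-Pearson interval 40.2 to 46.7%) and 38.2% in the KO library (35 to 41.5%). The difference, KO minus WT, was -5.26 percentage points (-9.76 to -0.73, Newcombe interval). Cluster 3 itself was 21.8% of WT cells and 24.4% of KO cells. As a share of all cells the mitotic cells were therefore 9.48% of WT and 9.31% of KO, a difference of -0.17 points (-1.46 to 1.13). The lower share within cluster 3 rested on the choice of genes: with 8 other G2 and M phase genes at the same threshold (Top2a, Tpx2, Birc5, Cenpf, Cenpe, Bub1, Kif11 and Aurkb), the shares were 55.2% in WT and 60.0% in KO, a difference of 4.77 points in the other direction. It also rested on the threshold, since at 0.05% the shares were 64.7% and 64.5%, while at 0.2% they were 19.3% and 13.4%.

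The distribution of the summed share shows where the libraries parted. Cells at 0.3% or more were 7.41% of WT cluster 3 (68 cells) and 4.27% of KO cluster 3 (38 cells), and cells from 0.2 to 0.3% were 11.9% and 9.10%. Just outside the threshold, from 0.09 to 0.1%, lay 26 WT and 36 KO cells. Just inside it, from 0.1 to 0.11%, lay 24 WT and 32 KO cells. The KO library thus held fewer cells at the top of the scale and more around the threshold. Depth differed between the libraries: mitotic cells held a median of 17007 UMIs and 4057 genes in WT and 10406 UMIs and 3214 genes in KO, so that 0.1% stood for fewer counts in KO. With cells thinned to 3000 UMIs and shallower cells left out, the shares were 48.4% and 45.4%, a difference of -3.06 points. Left out were 5 mitotic cells and 13 of the rest in WT, and 5 and 8 in KO.

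**Figure D2:**
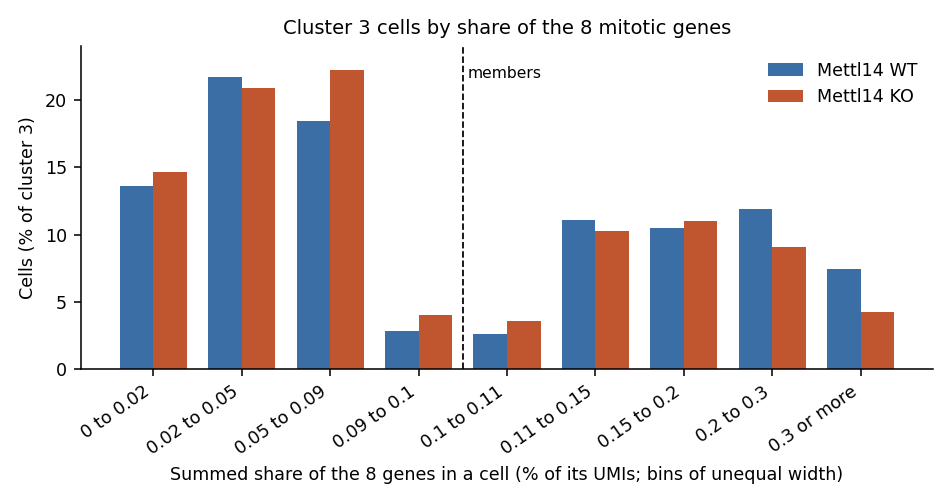
Cells of cluster 3, as a percentage of the cluster in each library, by the summed share of the 8 rule genes in a cell's UMIs (bins of unequal width); the dashed line is the 0.1% threshold. KO bars are the taller on both sides of the line, and WT bars are the taller at 0.2% and above.

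Each library held cells with Xist and cells with Y-linked transcripts, and the mitotic share was lower in KO in both kinds. Among Xist-positive cells, with 3 or more Xist UMIs and none from Y-linked genes, it was 43.1% of 376 WT cells and 38.1% of 378 KO cells. Among Y-positive cells, which had Y-linked UMIs but none of Xist, it was 46.9% of 320 WT cells and 41.1% of 285 KO cells. Each of these pairs of intervals overlapped. Cells with both kinds of UMI stood at 34.2% of 120 and 36.5% of 74 cells. No cell barcode of a mitotic cell occurred in both libraries, and 2 barcodes did so over all cells.

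The members varied along a scale that runs from replication to division. From the cluster 3 cells below 0.02% to those at 0.2% or more, the summed level of 113 other mitotic genes in 7 lists went from 10509 to 25231 CPM in WT and from 10499 to 24354 CPM in KO. CPM is the count of a gene scaled to a common total over the summed cells. Over the same bins the summed level of 35 S phase and replication genes went from 3166 to 1150 CPM in WT and from 2922 to 1237 CPM in KO. Within the members, cells from 0.1 to 0.2% stood at 1807 CPM of S phase genes in WT and 1718 CPM in KO. The bins are cut by the rule genes, so both trends describe how the cells were ordered. The S phase sum was lower in KO in every bin but the last.

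**Figure D3:**
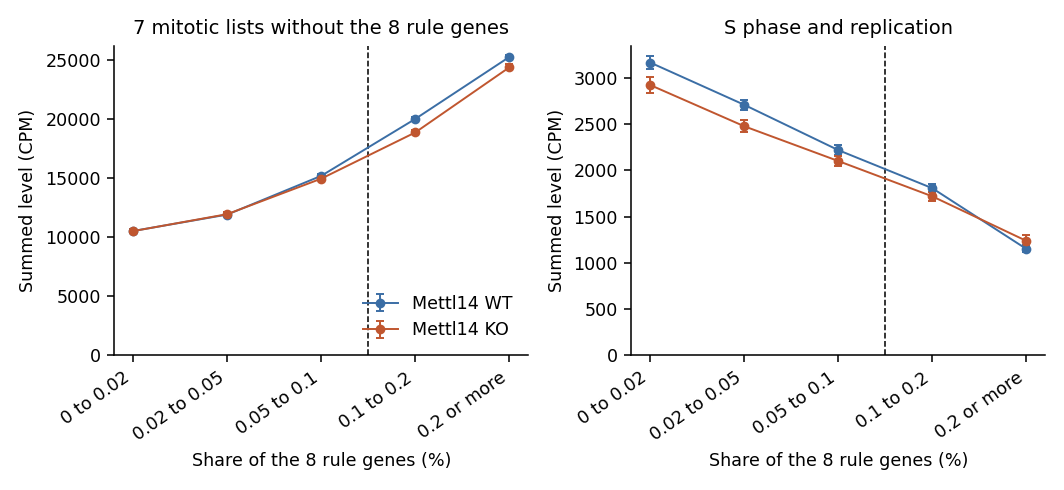
Summed level (CPM) of the 7 mitotic gene lists without the rule genes (left) and of the S phase list (right) in cluster 3 cells binned by the share of the 8 rule genes, with exact Poisson 95% intervals; the dashed line is the 0.1% threshold. The mitotic lists rise to 25231 CPM in WT and 24354 CPM in KO, and the S phase list falls to 1150 and 1237 CPM.

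The mitotic cells were compared with the rest of cluster 3 as a description only, since the rule set them apart on these genes. Of 9499 genes measured in both libraries, 186 (1.96%) were higher and 112 (1.18%) lower in the mitotic cells of both. A gene counted as measured from 50 UMIs over the cells compared, and higher or lower needed a 1.5-fold ratio with an interval that excluded equal levels. Of the 113 listed mitotic genes, 70 were higher in both libraries and 1, Mybl2, was lower. Mybl2 encodes B-MYB, a transcription factor made from late G1 and S phase, and its log2 ratio of mitotic cells over the rest was -1.21 in WT and -0.77 in KO.

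The genes highest in the mitotic cells beside the rule genes included Aurka, Cenpf, Cdc25b and Ckap2. Aurka, the kinase of the spindle poles, was higher by 1.94 (log2) in WT and 2.06 in KO. Cenpf, an outer kinetochore protein, was higher by 1.93 and 1.81. Cdc25b, the phosphatase that activates CDK1, was higher by 2.36 and 1.89. Ckap2, a microtubule-binding protein, was higher by 2.26 and 1.88. The 10 highest also held Fam83d, Arl6ip1, Cdkn3, G2e3, Pimreg and Dlgap5. Genes of the start of S phase were lowest: Ung, which removes uracil from DNA, at -2.25 in WT and -2.07 in KO, Ccne1 (cyclin E1) at -2.33 and -1.93, and Cdt1, which licenses replication origins, at -2.03 and -1.66. The MCM helicase genes Mcm3, Mcm4 and Mcm6, the replication clamp gene Pcna and Hells, Dtl and Dna2 were also among the 10 lowest, and 23 of the 35 S phase genes were lower in both libraries with none higher.

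Most mitotic genes differed by less than 1.5-fold between KO and WT members. Over the 8 rule genes together the level was 2096 CPM in WT and 1903 CPM in KO mitotic cells, and within that sum 7 of the 8 differed less than 1.5-fold. Members of both libraries were chosen by this sum, so near levels of the 8 genes are partly set by the rule. Ccnb1, the cyclin of mitotic entry, stood at 206 CPM in WT and 155 CPM in KO (log2 ratio of KO over WT -0.41, interval -0.55 to -0.27). Cdc20, the activator of the APC/C, stood at 204 and 172 CPM (-0.24, -0.38 to -0.11). Ube2c, which hands ubiquitin to the APC/C, stood at 792 and 739 CPM (-0.10, -0.16 to -0.03). These 3 leaned lower in KO, at less than 1.5-fold. Plk1, the kinase of centrosome maturation and mitotic entry, stood at 104 and 109 CPM (0.07, -0.10 to 0.25), and Aspm, a spindle pole protein, at 104 and 102 CPM (-0.03, -0.21 to 0.15). The intervals of both include equal levels. Cenpa, the histone H3 variant of the centromere, leaned the other way, at 326 and 396 CPM (0.28, 0.19 to 0.37), and Hmmr, a microtubule-associated protein of the spindle, stood at 147 and 118 CPM (-0.32, -0.48 to -0.16).

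Nusap1, which bundles spindle microtubules near the chromosomes, was the rule gene that differed by more. It stood at 214 CPM in WT and 112 CPM in KO mitotic cells (-0.94, -1.10 to -0.78), and made up 10.2% of the rule UMIs in WT and 5.87% in KO. In the rest of cluster 3 its ratio was -0.75. In Xist-positive mitotic cells the ratio was -1.09 and in Y-positive ones -0.68, and both kinds of cells are parts of the same pool. With cells thinned to 3000 UMIs, Nusap1 had a UMI in 46.2% of WT and 25.1% of KO mitotic cells; unthinned it was 82.5% and 59.4%. With Nusap1 left out of the rule, the mitotic shares of cluster 3 were 40.2% and 35.1%, a difference of -5.14 points, so the lower share was as large without it.

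**Figure D4:**
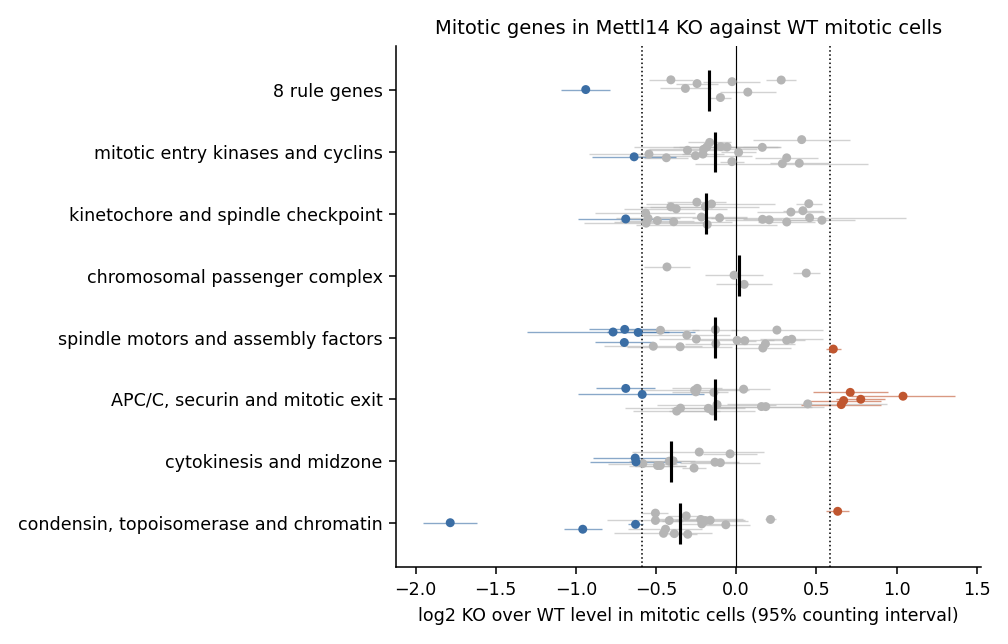
Ratio of the KO over the WT level (log2) of the 8 rule genes and the 113 genes of 7 mitotic lists in mitotic cells, with 95% counting intervals (thin lines); red points were higher, blue points lower and grey points neither at the 1.5-fold rule (dotted lines), and black bars are list medians. Of the 113 listed genes, 93 lie between the called groups, and H2afx is the lowest at -1.78.

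Across the 7 mitotic lists, 7 of the 113 genes (6.19%) were higher and 13 (11.5%) lower in KO mitotic cells, with a median log2 ratio of -0.19. Over all 9776 genes measured, 17.6% were higher and 11.1% lower, with a median of 0.03. The share of lower genes lay near that background and the share of higher genes below it. In the rest of cluster 3 the same lists had 14 genes higher and 5 lower (median -0.05), against 17.0% higher and 10.9% lower over all 10436 genes measured there. The listed genes rise with the share of the rule genes, which split these cells. The median share was 0.186% in WT and 0.174% in KO members, and 0.0402% and 0.0425% in the rest. The part of this in the counts was not tested. Leaving mitochondrial, ribosomal protein and haemoglobin genes out of the totals gave 537 WT and 509 KO members, with 4 listed genes higher and 22 lower against 1581 higher and 1379 lower of 10167 genes measured, so that the share of lower genes then lay above its background. With the 8 other G2 and M genes as the rule, 4 were higher and 20 lower, against 1840 higher and 1167 lower of 10283 genes measured. Those 8 genes are themselves among the listed genes, so these counts rest partly on genes that chose the cells. All of the 20 genes that passed kept their sign in Xist-positive and in Y-positive cells taken alone, and 7 passed in both. These cells are most of the pool in which the 20 genes were picked, so a kept sign was largely set in advance and is no separate check.

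Of 18 entry kinases and cyclins none was higher (against 17.6% of all genes) and 1 was lower (5.56%, against 11.1%). Cdk1, the kinase of mitotic entry, stood at 258 CPM in WT and 261 CPM in KO (0.01, -0.10 to 0.13). Ccnb2, cyclin B2, stood at 196 and 175 CPM (-0.17), and Ccna2, cyclin A2, at 212 and 156 CPM (-0.44). Foxm1, a transcription factor of G2 and M phase genes, stood at 30.4 and 40.4 CPM (0.41, 0.10 to 0.71), while its ratio in the rest of cluster 3 was 0.86. The 1 lower gene was Wee1, whose kinase holds CDK1 inactive, at 65.2 and 41.9 CPM (-0.64, -0.90 to -0.38).

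Of 22 kinetochore and spindle checkpoint genes, 1 was lower (4.55%, against 11.1% of all genes) and none higher (against 17.6%). The lower gene was Ttk, a kinase that starts the checkpoint signal, at 52.8 CPM in WT and 32.7 CPM in KO (-0.69, -0.99 to -0.40). In the rest of cluster 3 the Ttk ratio was 0.08, and the difference of the ratios was -0.77 (-1.19 to -0.35). Bub1 and Bub1b, which act with it at unattached kinetochores, stood at -0.57 and -0.49, and Sgo2a, a protector of cohesion, at 0.53, all at less than 1.5-fold. The large kinetochore gene Cenpe stood at 169 and 226 CPM (0.42) and Cenpf at 399 and 546 CPM (0.45), so the list held genes on both sides of equal levels. None of the 4 genes of the chromosomal passenger complex passed the rule: Aurkb stood at 0.05, Incenp at -0.01, Birc5 at 0.44 and Cdca8 at -0.43.

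Of 19 spindle genes 4 were lower (21.1%, against 11.1% of all genes) and 1 higher (5.26%, against 17.6%). The motor genes Kif11, which pushes the spindle poles apart, at 143 CPM in WT and 88.0 CPM in KO (-0.70, -0.88 to -0.52), Kif15 (-0.61) and Kif18b (-0.77) were lower, as was Kpna2 (-0.70), an importin that binds spindle factors. Tubb4b, a beta-tubulin, was higher, at 1050 and 1598 CPM (0.61, 0.56 to 0.65). The other 14 of 19 lay between, among them Tpx2 at -0.13 and Tacc3 at -0.13. The Kpna2 ratio was 0.07 in the rest of cluster 3, and the difference of its ratios was -0.76 (-1.13 to -0.39).

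The APC/C list was the one with most genes higher, 5 of 20 against 2 lower. Cdc26, a small subunit, stood at 99.98 CPM in WT and 171 CPM in KO (0.78, 0.62 to 0.93), Anapc10, which helps bind substrates, at 21.5 and 44.2 CPM (1.04, 0.72 to 1.36), and Anapc15 at 44.8 and 73.4 CPM (0.71, 0.48 to 0.95). The securin gene Pttg1 was higher at 46.9 and 74.7 CPM (0.67), as was Fbxo5, whose product EMI1 inhibits the APC/C, at 40.9 and 64.4 CPM (0.66). These genes therefore include a substrate and an inhibitor beside subunits. The subunit genes Anapc5 (139 and 85.9 CPM, -0.69) and Cdc23 (29.2 and 19.4 CPM, -0.59) were lower. The same 5 genes stood between 0.68 and 0.87 in the rest of cluster 3, and 4 of the 20 APC/C genes were higher in mitotic cells than in the rest in both libraries.

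The cytokinesis list had the lowest median of the 7, at -0.41, with each of its 12 genes below 0 (range -0.63 to -0.04). Of the 12, 2 counted as lower (16.7%, against 11.1% of all genes) and none as higher (against 17.6%). Only Anln, which scaffolds the contractile ring, at 66.9 CPM in WT and 43.2 CPM in KO (-0.63), and Cep55, of the midbody, at 56.4 and 36.6 CPM (-0.63), passed the 1.5-fold rule. Ect2, which activates RhoA at the cell equator, at -0.58, and Prc1, which bundles midzone microtubules, at -0.47, lay just inside it. The median in the rest of cluster 3 was -0.34.

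Chromatin and condensin genes held the largest single difference among the lists. H2afx, the histone variant that is phosphorylated at DNA breaks, stood at 292 CPM in WT and 84.9 CPM in KO mitotic cells (-1.78, -1.96 to -1.62), with a UMI in 367 of 399 WT cells and 178 of 340 KO cells. Its ratio in the rest of cluster 3 was -1.21. Its level was higher in mitotic cells than in the rest by 1.35 (log2) in WT and 0.78 in KO. Hmgn2, a nucleosome-binding protein, stood at 373 and 192 CPM (-0.96), and Hmgb1, a DNA-bending protein, at 2143 and 1387 CPM (-0.63). H2afx and Hmgn2 were lower in Xist-positive and in Y-positive mitotic cells. Mki67, which coats mitotic chromosomes and is used as a marker of proliferation, was higher at 462 and 717 CPM (0.63, 0.56 to 0.71), and in Y-positive cells it stood at 0.55, below the 1.5-fold rule. Top2a, the topoisomerase that untangles chromosomes, stood at 513 and 384 CPM (-0.42), and the condensin genes Smc2 and Smc4 at -0.21 and -0.31.

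Some of the lists outside the mitotic machinery differed more in KO mitotic cells, and others, such as the nuclear genes of the respiratory chain, did not. The targeted gene came to 107 UMIs in 92 WT mitotic cells and 23 UMIs in 21 KO mitotic cells, 14.9 and 5.88 CPM (-1.35, -2.06 to -0.69). A 3′ read can lie outside deleted exons, so remaining Mettl14 UMIs do not show intact transcripts. Its partner Mettl3 stood at 14.2 and 8.44 CPM (-0.76, -1.37 to -0.18). In Xist-positive mitotic cells Mettl14 stood at -1.57 and Mettl3 at -1.43, while in Y-positive ones they stood at -1.01 (-2.33 to 0.12) and -0.08 (-0.998 to 0.77) and neither passed. Among 19 measured genes of the m6A pathway 5 were higher (26.3%, against 17.6% of all genes) and these 2 lower (10.5%, near the background of 11.1%). The higher ones included Rbm15, a writer subunit that recruits the complex to RNA, at 41.9 and 125 CPM (1.58), and the readers Ythdf2 (1.25) and Ythdf1 (0.89).

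Of 19 measured NF-κB targets and regulators, 12 were higher (63.2%, against 17.6% of all genes) and 1 lower (5.26%, against 11.1%). Their median was 1.19. Nfkbia, the inhibitor that NF-κB induces against itself, stood at 69.0 CPM in WT and 262 CPM in KO (1.92, 1.77 to 2.08), and Icam1 (2.80) and Nfkb2 (2.47) were higher as well. Of 19 measured interferon response genes 11 were higher (57.9%, against the same 17.6%) and none lower, with a median of 0.98. This median depended on the cells and counts taken: it was 0.29 at a threshold of 0.2%, 0.27 with the 4 marker genes as the rule and 2.13 after thinning. The genes measured in these settings were 7757, 8648 and 5886, against 9776, so the list members entering the median can differ. Ubd, which encodes a ubiquitin-like modifier, stood at 0.28 and 105 CPM, with 2 UMIs in WT and 409 UMIs spread over 139 KO cells (8.55, 6.69 to 11.60). Rtp4 (1.12 and 40.9 CPM), Isg15 (2.79 and 41.4 CPM) and Bst2 (14.2 and 66.2 CPM) were also higher. Ccl20, a chemokine that attracts lymphocytes, had 260 UMIs in 41 KO cells and 14 UMIs in 10 WT cells, so it lay in a minority of the cells. The medians in the rest of cluster 3 were 0.84 for NF-κB and 0.83 for interferon genes. The 11 immune cell markers in the table summed to 38.7 CPM in WT and 73.6 CPM in KO mitotic cells, with Cd3e and Nkg7 at 0 in both. Their part in these results was not tested.

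Of 19 measured p53 targets, 8 were higher (42.1%, against 17.6% of all genes), 1 was lower and 10 were neither (median 0.34). The median was 0.99 in cells thinned to 3000 UMIs, 0.83 in Xist-positive and 0.99 in Y-positive cells. Phlda3, a p53-induced brake on AKT, stood at 4.61 CPM in WT and 56.0 CPM in KO (3.603, 3.07 to 4.18). Cdkn1a, which encodes the CDK inhibitor p21, stood at 23.3 and 83.4 CPM (1.84, 1.56 to 2.12) and had a UMI in 105 of 399 WT and 137 of 340 KO mitotic cells. Zmat3 (2.03) and Gdf15 (2.14) were also higher. In mitotic cells thinned to 3000 UMIs, 8.38% of WT and 19.1% of KO cells had a Cdkn1a UMI. The same shares were 7.11% and 18.1% in the rest of cluster 3, and 32.99% and 44.3% in cluster 5, where Cdkn1a had UMIs in more cells. The part of free RNA in these shares was not tested. Of 27 cell death genes, 11 were higher (40.7%, against 17.6% of all genes) and 4 lower (14.8%, against 11.1%), with a median of 0.38. Bax, a pore-forming death effector that p53 also induces, stood at 101 and 293 CPM (1.54), and Tradd, an adaptor of the TNF receptor, at 27.0 and 62.4 CPM (1.21). Gsdmc4, a gasdermin, was lower at 54.5 and 18.4 CPM (-1.56). The 21 DNA damage response genes had 1 higher and 2 lower, near or below the background in both directions.

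Of 19 measured stem cell and Wnt target genes 9 were lower (47.4%, against 11.1% of all genes), 10 were neither and none was higher (median -0.28). Lgr5, the receptor that marks crypt stem cells, stood at 82.5 CPM in WT and 7.67 CPM in KO (-3.43, -4.01 to -2.90), with a UMI in 186 of 399 WT and 23 of 340 KO mitotic cells. Hopx (154 and 50.4 CPM, -1.62), Rnf43, which removes Wnt receptors from the surface (48.5 and 16.1 CPM, -1.59), and Smoc2 (49.99 and 23.0 CPM, -1.12) were lower as well. Smoc2 stood at -1.94 in Xist-positive cells and at -0.52 in Y-positive cells, where it did not pass. Other stem cell markers did not go one way. Ascl2 stood at 57.7 and 70.3 CPM, Prom1 at 31.1 and 41.2 CPM and Slc12a2 at 626 and 672 CPM. Axin2 stood lower in KO, at 63.8 and 34.5 CPM, as did Cdca7, at 73.6 and 36.8 CPM. Sox9 stood at 269 and 246 CPM. Of 20 measured immediate early genes 12 were lower (60%, against 11.1% of all genes) and 1 higher (5%, against 17.6%), with a median of -0.95. Among the lower ones were Fos at 308 and 69.8 CPM (-2.14), Fosb at 85.0 and 11.3 CPM (-2.92) and Dusp1 at 22.8 and 1.53 CPM (-3.89). Immediate early transcripts also respond to tissue dissociation, and the handling of each library was 1 preparation, so genotype and preparation cannot be told apart for them.

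The other cell cycle lists held genes on both sides of equal levels. Of 33 measured S phase genes 5 were higher (15.2%, against 17.6% of all genes) and 6 lower (18.2%, against 11.1%), with a median of -0.16. Fen1, which trims replication flaps, stood at 31.0 and 107 CPM (1.78) and Tk1, thymidine kinase, at 104 and 235 CPM (1.18). Cdca7 stood at 73.6 and 36.8 CPM (-0.999). Of 13 measured G1 genes 2 were higher (15.4%) and 5 lower (38.5%), against the same shares of all genes. Besides Cdkn1a the higher gene was Ccnd2, cyclin D2, at 233 and 548 CPM (1.23), and Cdkn2c, an inhibitor of CDK4 and CDK6, was lower at 29.2 and 16.4 CPM (-0.83). Of 25 stress response genes 3 were higher (12%) and 2 lower (8%), both below the background, with Hspa5, the chaperone of the endoplasmic reticulum, at 269 and 583 CPM (1.11). Of 40 nuclear genes of the respiratory chain, 39 lay within the 1.5-fold rule, and Uqcrfs1 (0.88) was higher.

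**Figure D5:**
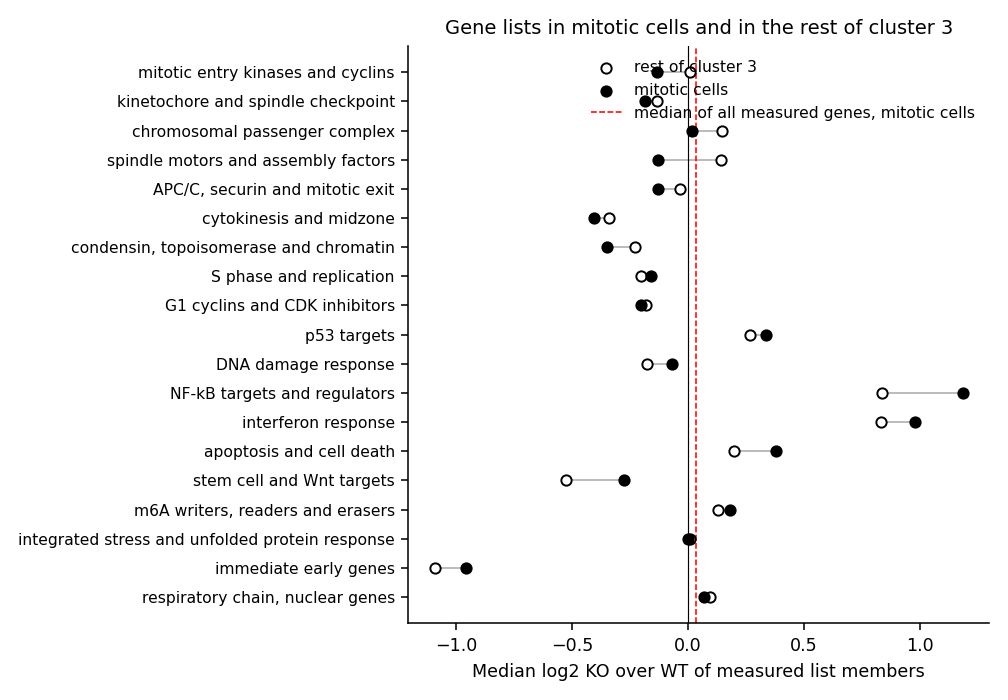
Median log2 ratio of KO over WT over the measured members of 19 gene lists in mitotic cells (filled) and in the rest of cluster 3 (open); the dashed line is the median of all genes measured in mitotic cells (0.03). NF-κB and interferon lists lie near 1 and immediate early genes near -1 in both sets of cells, while the 7 mitotic lists lie between -0.41 and 0.02 in mitotic cells.

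The 10 genes highest and the 10 lowest in KO held none of the 113 listed mitotic genes. Those 113 are a small part of the 9776 genes measured, so this absence says little about them. Ncf4, a subunit of a phagocyte oxidase, had 179 UMIs in 102 KO mitotic cells and none in WT, which is at least 109-fold higher in KO when the WT sum is set to a floor of 3 counts. Serpina10, a protease inhibitor, stood at 1.68 and 62.9 CPM (5.23), Cd177, known from neutrophils, at 12.2 and 177 CPM (3.86), Chpf, a chondroitin-synthesising enzyme, at 2.79 and 50.9 CPM (4.19), and Ceacam10 at 2.23 and 38.1 CPM (4.09). With Ubd, Ccl20, Rtp4, Isg15 and Phlda3 these were the 10 highest. Each of the 10 had UMIs in 41 or more KO mitotic cells and was higher in Xist-positive and in Y-positive cells. Both kinds of cells are parts of the pool that ranked these genes. At the low end, H1fx, a linker histone, stood at 36.4 and 1.53 CPM (-4.57, -6.03 to -3.43), Gpc3, a glypican, at 29.0 and 1.53 CPM (-4.24), and Cps1, of the urea cycle, at 67.2 and 6.39 CPM (-3.39). Timp3, a metalloproteinase inhibitor, and Folr1, a folate receptor, were lower by the same rule (-3.27 and -3.74). Of the 515 Defb50 UMIs in WT mitotic cells 99.6% lay in 1 cell, and 65.9% of the 170 Ang4 UMIs did so, so these 2 of the 10 lowest rest largely on single cells.

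Goblet transcripts had a UMI in 388 of 399 WT and 322 of 340 KO mitotic cells, and reached 1% of the UMIs in a minority of them. In 90 of 399 WT mitotic cells (22.6%) and 57 of 340 KO mitotic cells (16.8%) the 10 goblet markers held 1% or more of the UMIs, against 24.3% and 15.5% of the rest of cluster 3. The 10 markers summed to 6122 CPM in WT and 4727 CPM in KO, but did not go one way. Muc2, the gel-forming mucin, stood at 473 and 340 CPM (-0.48, below the 1.5-fold rule), Spink4 at 2312 and 738 CPM and Agr2 at 2295 and 1682 CPM, while the trefoil peptide gene Tff3 stood at 754 and 1562 CPM, Fcgbp at 52.9 and 80.0 CPM and Atoh1, a transcription factor of the secretory lineage, at 78.1 and 109 CPM. Car1, a colonocyte carbonic anhydrase, stood at 4.33 and 12.5 CPM (1.53, 0.86 to 2.23) in 23 cells of each library, and passed the rule in neither Xist-positive nor Y-positive cells alone (1.37 and 0.11). The 10 colonocyte markers together stood at 380 and 160 CPM. No mitotic cell reached 1% for the immune, stromal, erythroid, tuft, enteroendocrine or pancreatic enzyme markers. Stromal markers summed to 15.1 and 6.90 CPM, and the 93 erythroid UMIs of the WT members lay in 1 cell. Tuft markers gave 5 UMIs in WT and 4 in KO. Without the goblet-rich cells the mitotic shares of cluster 3 were 44.0% and 37.8%.

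The KO over WT ratio of a gene was then set against its ratio in the rest of cluster 3. Of 9745 genes measured in both, 175 (1.80%) had a ratio at least 1.5-fold higher in the mitotic cells and 134 (1.38%) a ratio at least 1.5-fold lower, with an interval of the difference that excluded 0. None of the 113 listed mitotic genes had a higher ratio and 4 had a lower one, namely Ttk, Kpna2, Ccnf, a cyclin F gene (-0.20 against 0.60 in the rest), and Zwilch, a kinetochore gene (-0.39 against 0.24). By the median share of the rule genes, KO members stood below WT members and the KO rest above the WT rest. The part of this in these 4 ratios was not tested. Genes of 20 CPM or more were ranked on the end of the interval of the difference closer to 0, not on its size. The 5 at the high end were Ccl20 (log2 ratio 5.09 against 3.40 in the rest), Chpf (4.19 against 2.72), Cps1 (-3.39 against -4.91), Rhbdd2 (1.04 against -0.05) and Spink1 (2.72 against 2.09). Cps1 was lower in KO in both sets of cells, and less so in the mitotic cells. Spink1, a trypsin inhibitor, stood at 206 and 1355 CPM in mitotic cells. The 5 at the low end were Zg16, a goblet lectin (1.40 against 3.87), the lipid carrier genes Apoe (-0.01 against 1.495) and Fabp6 (1.05 against 2.58), Tnfaip8l1 (1.56 against 2.51) and Sprr2a3 (0.63 against 1.47). In WT 44.2% of the Zg16 UMIs of the mitotic cells lay in 1 cell, and for Apoe the top cell held 16.2% in WT and 26.3% in KO.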

How the data were processed

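UMI counts were used as the authors deposited them (17829 genes, 7863 cells), with a cell table of library and cluster. Tools named in the submitters' processing notes are Cell Ranger and bcl2fastq, and the build is mm10. Versions, cell filter and clustering method are not given in the sources used here. The cell table supplied cluster 3, and no doublets were removed.

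Counts were summed per library over mitotic cells and over the rest of cluster 3 and scaled by the sum to CPM. The libraries held 4210 cells with 60205658 UMIs (WT) and 3653 cells with 37635762 UMIs (KO). Intervals at the 95% level are Clopper-Pearson for shares, Newcombe for their difference, Poisson for CPM and conditional binomial for ratios, and a normal interval on the log scale for differences of ratios. Counts of 0 were set to a floor of 3 counts over the group. The counting steps were tested on simulated data. Computation used Python 3.11.15, numpy 2.4.6, scipy 1.17.1 and statsmodels 0.14.6.

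Members and gene lists were chosen with earlier results of these data known. Beside the rule genes and the 7 mitotic lists, named genes were the 10 highest and 10 lowest, ranked on the end of the interval closer to 0 among genes of 20 CPM or more in either library, for KO over WT and for mitotic over rest, 5 each for differences of ratios, up to 4 per other list, and Mettl14, Mettl3, Mki67, Lgr5, Nfkbia, Cdkn1a, Muc2 and Car1. Predicted genes were counted and not named. A gene that met these rules is not reported here. There were 15 alternatives, and 2 more, leaving out goblet-rich cells and leaving Nusap1 out of the rule, were added after seeing the data.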

Additional observations from a re-analysis of the deposited data

Results flagged for a closer look

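For 4 genes the ratio of mitotic cells over the rest of cluster 3 had opposite signs in the libraries, each past 1.5-fold with an interval that excluded equal levels. They were named because of these values, and the differences between the libraries were not tested. They were 4 of 9499 genes measured in both. Zbtb34 had a log2 ratio of -0.71 in WT and 0.78 in KO, on 34 and 32 UMIs in mitotic cells. It was also the gene whose KO over WT ratio was 0.79 in mitotic cells and -0.70 in the rest. C1qa, a complement gene of macrophages, had 0.72 in WT and -0.70 in KO, on 71 UMIs in 25 WT cells and 38 UMIs in 24 KO cells. Apoe had 0.72 and -0.78, and Fabp6 0.69 and -0.84. The top cell held 28.2% of the C1qa UMIs of WT mitotic cells. The part of RNA from other cells in these values was not tested.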

How the results depend on the processing

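No paired analysis was possible because each genotype has 1 library, and no library could be left out. The difference in mitotic share (main value -5.26 points) kept its direction under 12 of 13 alternatives and reversed with the 8 other G2 and M genes (WT 55.2%, KO 60.0%, 4.77 points). It came to -0.21 points at a threshold of 0.05% (64.7% and 64.5%). The level of the shares moved with the threshold or denominator at 0.2% (19.3% and 13.4%), with the 4 marker genes (25.6% and 20.4%), with thinning to 3000 UMIs (48.4% and 45.4%), with totals without mitochondrial, ribosomal protein and haemoglobin genes (58.5% and 57.2%) and, for WT, in Y-positive cells (46.9%) and without Nusap1 in the rule (40.2%). The counts of genes higher and lower in KO mitotic cells (1722 and 1082) came to 970 and 533 after thinning, 1103 and 670 in Y-positive cells, 953 and 554 at 200 UMIs per gene and 717 and 438 at 2-fold, where fewer cells, counts or genes enter or the rule is stricter. Totals without mitochondrial, ribosomal protein and haemoglobin genes gave 1581 and 1379, a more even split. The interferon median (0.98) came to 0.29 at 0.2%, 0.27 with the 4 marker genes and 2.13 after thinning, and the p53 median (0.34) to 0.99 after thinning. The genes with enough UMIs were found anew for each alternative, so these medians can cover different members of a list. No list median of 1.5-fold or more changed sign under any alternative, and the cause of the reversed share was not tested. The depth limits low genes: a gene needed 50 UMIs over both sums.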
